A study of Mus musculus with 6 samples.

Results

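The genes described here are 5 solute carriers, Slc20a1, Slc41a3, Slc9a9, Slc8a1 and Slc26a9, taken by symbol from a deposited table of 1228 genes. Their transcripts were measured by RNA sequencing in wild-type Bv2 cells, a mouse microglial line that grows without limit in culture. The 6 libraries come from 3 control samples and from 3 samples of cells deprived of oxygen and glucose and then reperfused (OGD/R). Deprived cells had 30 min under pure nitrogen and 2 h without glucose and serum in a gas with 1% oxygen, then 24 h in standard medium with serum. The same protocol mentions an infection 72 h earlier without naming the agent or the samples it applies to, and it does not say how control cells were handled, so a difference in infection or in medium change between the groups cannot be told apart from OGD/R. The labels do not say whether replicates were separate cultures, and p-values here reflect only how far these 6 samples differ, which may be technical.

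Carriers of the SLC families move ions across the plasma membrane or organelle membranes, mostly by coupling them to the sodium or proton gradient. Slc8a1 encodes the plasma membrane sodium-calcium exchanger, which exports calcium in its forward mode and can run in reverse when sodium builds up inside the cell, as happens when pumps lack ATP. Slc9a9 encodes a sodium (or potassium)-proton exchanger of endosomes that lets protons leak out of the lumen. Slc20a1 encodes a sodium-coupled importer of inorganic phosphate, and Slc41a3 belongs to a family of sodium-coupled magnesium transporters. Slc26a9 encodes a chloride channel and anion transporter best known from stomach and airway epithelium, so it carries none of the calcium, protons, magnesium or phosphate of the other members.

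Values are FPKM, fragments scaled to gene length and sequencing depth, so levels of different genes can be compared. Every listed gene differs by about 2-fold or more between the group means, so a difference was a condition for being listed. Of the 1228 genes, OGD/R had the higher mean in 605 and the lower in 623. In 94.9% of them the groups did not overlap, 48.4% with OGD/R higher and 46.5% with OGD/R lower. The steps between low values put the depth of control libraries at 7630000 to 8246000 counted units and that of OGD/R libraries at 8028000 to 8668000, where a unit is what 1 count adds to a gene. Of 13 listed microglial and macrophage markers only Cx3cr1 and P2ry12 were in the table, with a summed level of 0.79 to 1.08 FPKM in control and 2.81 to 3.17 in OGD/R libraries; the other markers are not analysed here. The markers of other cells in the table were Vwf, at 3.22 to 4.40 FPKM in control and 1.10 to 1.74 in OGD/R, Tubb3, at 0.56 to 1.17 and 0 to 0.37, and Cspg4, at most 0.09, and their part in the carriers' values was not tested. None of 4 epithelial markers (Epcam, Krt8, Krt18 and Cdh1) was among its genes. The table lists only genes that differ between the groups, so the absence of a marker says nothing about its level.

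Slc20a1 (ENSMUSG00000027397) was the most abundant of the carriers and fell after OGD/R. The gene spans 12.9 kb of chromosome 2 on the plus strand, from 129198764 to 129211616 on GRCm38. Control libraries held 134.68, 122.21 and 133.83 FPKM and OGD/R libraries 39.75, 37.93 and 36.86. All 3 OGD/R values lay far below all 3 control values, and the spread was small in each group, with a coefficient of variation of 5.35% and 3.83%. The mean went from 130 ± 6.97 to 38.2 ± 1.46 FPKM (SD, n = 3), 3.41-fold lower (log2 fold change -1.74 ± 0.10 SE on log2(FPKM + 1), adjusted p = 4.5e-05 in limma). In bulk RNA, fewer expressing cells and less transcript per cell cannot be told apart. Its level ranked 24 among the 1228 genes in control and 63 in OGD/R. The fall itself ranked 219 among the 623 lower genes, whose median was 2.79-fold, so the gene stood out in the table by its level more than by its fold.

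The promoter windows of the carriers were read from RefSeq (GRCm38.p6), which gave 6 windows of 300 bases for all 5 members, and are shown for Slc20a1 and Slc41a3, whose values were lower after OGD/R, and for Slc8a1, which rose. Each is printed on the gene's strand and stops before the first start site that RefSeq or GENCODE places in the window. Capitals mark CACGTG, the E-box read by basic helix-loop-helix factors.
Slc20a1, chr2:129198523-129198763, plus strand: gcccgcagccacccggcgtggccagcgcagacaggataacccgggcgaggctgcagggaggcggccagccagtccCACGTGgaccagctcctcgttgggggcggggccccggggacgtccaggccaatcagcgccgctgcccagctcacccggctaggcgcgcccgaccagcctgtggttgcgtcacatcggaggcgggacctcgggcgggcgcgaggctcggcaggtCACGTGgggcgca
Slc41a3, chr6:90618996-90619146, plus strand: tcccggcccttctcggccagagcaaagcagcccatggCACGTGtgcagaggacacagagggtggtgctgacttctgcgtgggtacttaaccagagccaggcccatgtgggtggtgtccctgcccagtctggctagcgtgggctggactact
Slc8a1, chr17:81738388-81738637, minus strand: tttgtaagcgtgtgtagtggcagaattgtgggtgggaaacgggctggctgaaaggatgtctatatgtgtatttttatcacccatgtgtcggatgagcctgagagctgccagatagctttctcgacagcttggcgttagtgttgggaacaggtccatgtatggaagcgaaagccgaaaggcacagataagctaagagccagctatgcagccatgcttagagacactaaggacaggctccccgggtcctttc
The Slc20a1 window held CACGTG at 2 places, beginning 166 and 13 bases before the first GENCODE start, where the printed stretch ends. Of 32851 RefSeq windows of this length 7.15% held the motif and 0.594% held it at 2 or more places. The Slc41a3 window held it at 1 place, 114 bases before a second, internal GENCODE start. That window lies inside the gene: its RefSeq start is 14521 bases past the first GENCODE start and 99 bases past the internal one. The windows of Slc8a1, Slc9a9 and Slc26a9 and a second, internal window of Slc20a1 held no CACGTG. GC content of the printed stretches was 75.5% for Slc20a1, 62.9% for Slc41a3 and 50.4% for Slc8a1. Of the other motifs searched on both strands, ACGTG is a form of the core of the hypoxia response element. It lies within CACGTG, was found at no other place in the members' windows and is held by 19.6% of all windows. The form GCGTG was not searched, though the printed stretches hold it. TGANTCA, a loose form of the AP-1 site with any middle base, was found in the Slc9a9 window (7.81% of all windows). The match reads TGAATCA, while the AP-1 consensus has C or G in the middle. TGACG, a CRE half-site, was found in both Slc20a1 windows (20.8%). These matches describe letters in the windows and say nothing about binding.

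Slc20a1 shares exon sequence with a pair of genes on the opposite strand, both in the table and named after their values were seen. Gm4430 (chromosome 2, 129197252 to 129199194) overlaps 280 nt of Slc20a1 exons at the 5′ end, and 9830144P21Rik (129205958 to 129230579) overlaps 452 nt further along. Gm4430 held 27.53, 20.16 and 21.93 FPKM in control and 8.33, 6.69 and 6.24 in OGD/R libraries. The corresponding values of 9830144P21Rik were 32.77, 28.68 and 31.08 against 9.35, 8.70 and 8.10 FPKM. Neither gene's groups overlapped. By ratio of means the falls of 3.27-fold and 3.54-fold lie on either side of the 3.41-fold of Slc20a1. On log2(FPKM + 1) both fell less than Slc20a1, at -1.58 ± 0.16 and -1.71 ± 0.10 SE against -1.74 (limma adjusted p = 0.00018 and 5.7e-05 for the pair). The sources do not state if reads were counted by strand, so reads of the shared stretches cannot be told apart. Together the pair had 25.1% to 28.4% as many counted units as Slc20a1 in each library.

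**Figure D1:**
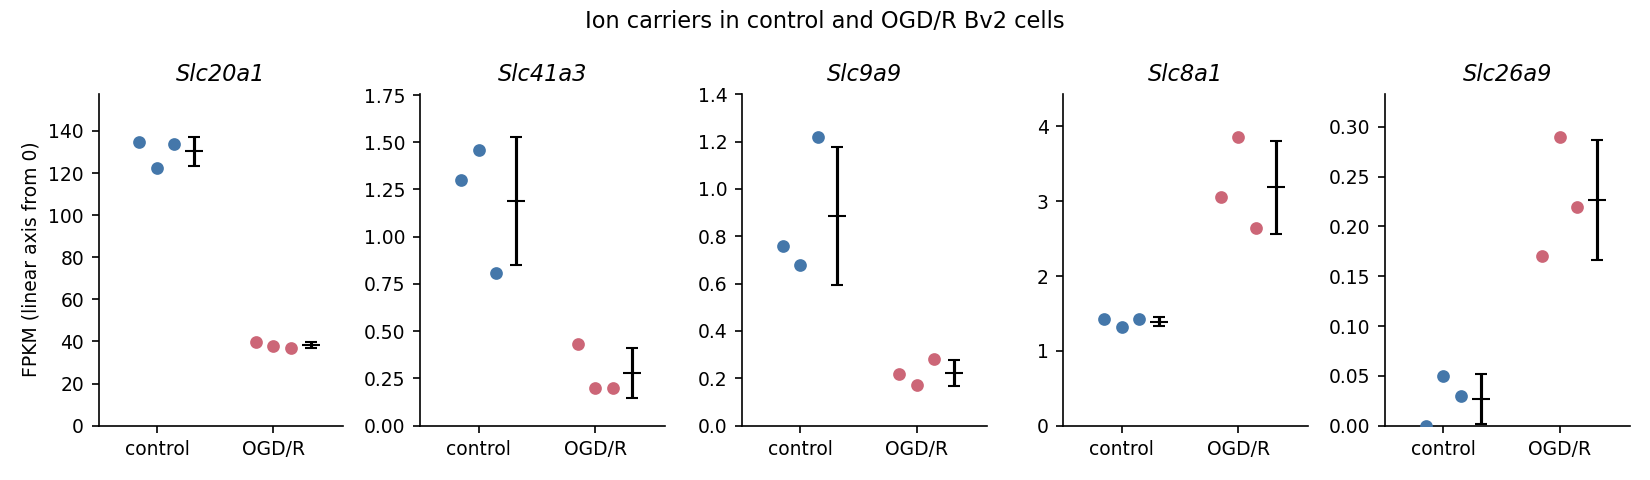
FPKM of each carrier (linear axes from 0, scaled per gene) in the 3 control (blue) and 3 OGD/R (red) libraries, with the mean and SD as black bars beside the points. The groups do not overlap in any of the 5 genes: Slc20a1, Slc41a3 and Slc9a9 lie lower in OGD/R, Slc8a1 and Slc26a9 higher.

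Slc41a3 (ENSMUSG00000030089, chromosome 6, 90604725 to 90646412, plus strand), the magnesium carrier, was near 1 FPKM in control. Its values were 1.30, 1.46 and 0.81 FPKM in control and 0.43, 0.20 and 0.20 in OGD/R. The third control library was the lowest of its group and the first OGD/R library the highest of its own, and the groups stayed apart. These values correspond to 29, 35 and 18 counted units against 10, 5 and 5, so counting error alone is large here. The mean was 1.19 ± 0.339 FPKM in control and 0.277 ± 0.133 in OGD/R (SD, n = 3), a ratio of 4.30 of control over OGD/R. From the summed units the ratio was 4.38, with an exact 95% interval of 2.66 to 7.55 that covers counting error only.

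Slc9a9 (ENSMUSG00000031129), the endosomal proton exchanger, spans 560.5 kb of chromosome 9 from 94669909 to 95230445 on the plus strand. Its control values were 0.76, 0.68 and 1.22 FPKM and its OGD/R values 0.22, 0.17 and 0.28. The third control library stood highest, the reverse of its place for Slc41a3, and the groups did not overlap. In counted units these were 33, 32 and 53 against 10, 8 and 14. The mean was 0.887 ± 0.291 FPKM in control and 0.223 ± 0.0551 in OGD/R (SD, n = 3), a ratio of 3.97. The ratio from summed units was 3.94 (exact 95% interval 2.65 to 6.02, counting error only). No GENCODE gene shares exon bases with Slc9a9, Slc41a3 or Slc26a9.

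Slc8a1 (ENSMUSG00000054640, chromosome 17, 81373105 to 81738377, minus strand), the sodium-calcium exchanger, rose. Control libraries held 1.42, 1.32 and 1.43 FPKM and OGD/R libraries 3.06, 3.86 and 2.64. The control values were nearly equal, the OGD/R values were spread more widely with the second library highest, and all 3 lay above control. The mean went from 1.39 ± 0.0608 to 3.19 ± 0.620 FPKM (SD, n = 3), 2.29-fold higher (log2 fold change 0.80 ± 0.13 SE with a 95% interval of 0.48 to 1.12, adjusted p = 0.0013 in limma). The pseudocount of 1 shrinks the change at this level. Counted units are recovered from FPKM to 2 decimals, which leaves those of Slc8a1 uncertain by 0.717 to 0.815 per library. Equal counts for this gene are therefore approximate. On counted units, 205, 205 and 205 against 462, 615 and 430, the voom method of limma gave a log2 fold change of 1.18 ± 0.17 SE (adjusted p = 0.00028; 0.00028 to 0.0059 over the 15 settings that tested the gene with the filter). Its GENCODE exons sum to 18807 nt over 6 transcripts, against a median of 4821.5 nt for protein-coding genes higher in OGD/R and 3448.5 nt for lower ones. The length behind its FPKM is not stated, and the rounding of its units is too coarse to check it. If the FPKM used this length and the cells use a shorter transcript, its level per length is understated. AC122399.1, an antisense gene not analysed here, shares 296 nt of these exons, and Gm11096, also on the opposite strand and not analysed here, shares 8 nt. The rise of Slc8a1 ranked 457 among the 605 higher genes, whose median was 2.70-fold.

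Slc26a9 (ENSMUSG00000042268, chromosome 1, 131744022 to 131771504, plus strand), the anion transporter, was close to the limit of detection. It was listed at 0, 0.05 and 0.03 FPKM in control and at 0.17, 0.29 and 0.22 in OGD/R. That is 0, 2 and 1 counted units against 7, 13 and 10, so the higher OGD/R values rest on 30 units in all and the control values on 3. The group means were 0.0267 ± 0.0252 and 0.227 ± 0.0603 FPKM (SD, n = 3). Per library size the ratio of OGD/R over control was 9.35, with an exact 95% interval of 2.91 to 47.9 for counting error only, so the size of the difference is poorly fixed.

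Of the 5 carriers, 2 had a mean of at least 1 FPKM over the 6 libraries and were tested, and both passed at an adjusted p under 0.05 in limma, 1 rising (Slc8a1) and 1 falling (Slc20a1). The background was 97.3% of the 852 genes tested, 46.6% higher and 50.7% lower, so passing the test sets neither gene apart from the table. For Slc41a3, Slc9a9 and Slc26a9, below that minimum, the exact permutation test over the 6 libraries gave p = 0.1 (two-sided), the smallest it can give for 3 against 3. With no minimum all 5 passed in limma, where 96% of the 1228 genes did, and in voom, where 98% did. The adjusted p was then 0.0022 for Slc41a3, 0.0027 for Slc9a9 and 0.0034 for Slc26a9, and over the 11 settings run without the minimum it was 0.0017 to 0.010, 0.0013 to 0.012 and 0.0019 to 0.012. In all 5 the groups did not overlap (94.9% of the table; 48.4% higher and 46.5% lower).

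**Figure D2:**
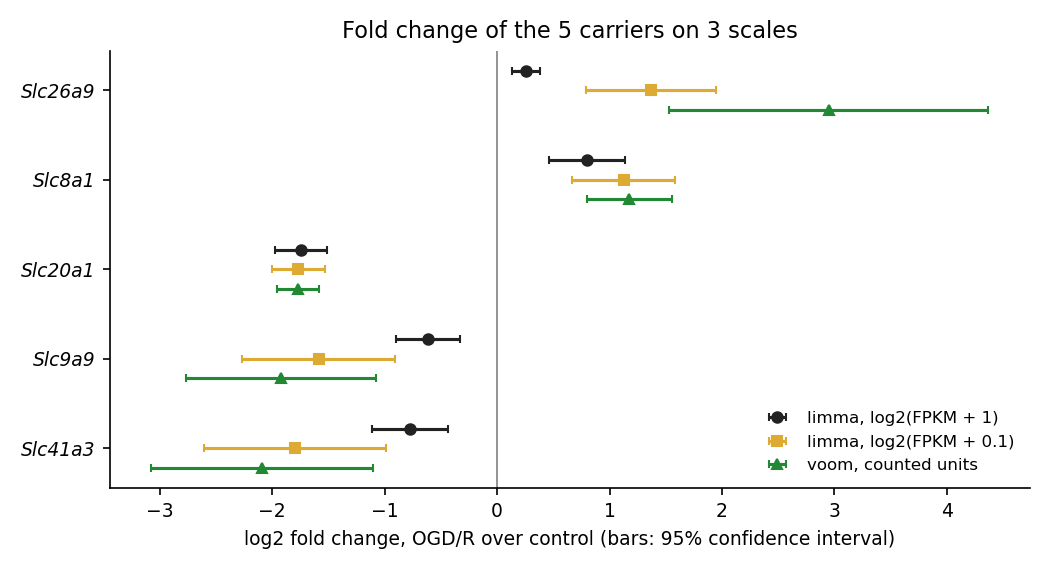
Log2 fold change of OGD/R over control (x axis; bars, 95% confidence intervals) for each carrier with no expression minimum, from limma on log2(FPKM + 1), limma on log2(FPKM + 0.1) and voom on counted units. Slc20a1 stays near -1.7 to -1.8 on every scale, while the low genes Slc26a9, Slc9a9 and Slc41a3 move from 0.26, -0.62 and -0.77 to 2.95, -1.92 and -2.09.

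The size of the fold depended on the scale for the low genes and hardly at all for Slc20a1. On log2(FPKM + 1) the log2 fold changes of Slc41a3, Slc9a9 and Slc26a9 were -0.77 ± 0.14, -0.62 ± 0.12 and 0.26 ± 0.05 SE. With voom and no minimum they were -2.09 ± 0.43, -1.92 ± 0.37 and 2.95 ± 0.62. For Slc20a1 the corresponding values were -1.74 and -1.77. On counted units the intervals of the 3 lower genes overlap one another (-3.07 to -1.10 for Slc41a3, -2.76 to -1.08 for Slc9a9 and -1.96 to -1.58 for Slc20a1), and a difference in fold among them was not tested.

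Slc20a1, Slc8a1 and Slc41a3 held the first 3 places in this order in both groups. In control the mean of Slc20a1 was 93.7 times that of Slc8a1, and in OGD/R 11.98 times. Both ratios depend on the gene lengths behind the FPKM. GENCODE exons sum to 18807 nt for Slc8a1 and 5580 nt for Slc20a1, and a shorter transcript of Slc8a1 in use would lower both. Slc8a1, Slc41a3 and Slc9a9 followed in control, each overlapping the next in range, so neighbours in this order are not resolved, and Slc26a9 came last, its highest value of 0.05 FPKM below the lowest of Slc9a9 at 0.68. In OGD/R the lowest Slc20a1 value, 36.86 FPKM, was still far above the highest of Slc8a1, 3.86, and the lowest Slc8a1 value of 2.64 lay above the highest of Slc41a3 at 0.43 FPKM. Slc41a3, Slc26a9 and Slc9a9 then had overlapping ranges between 0.17 and 0.43. Slc8a1 lay clear of Slc41a3 in OGD/R, while in control the ranges of the pair overlapped.

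**Figure D3:**
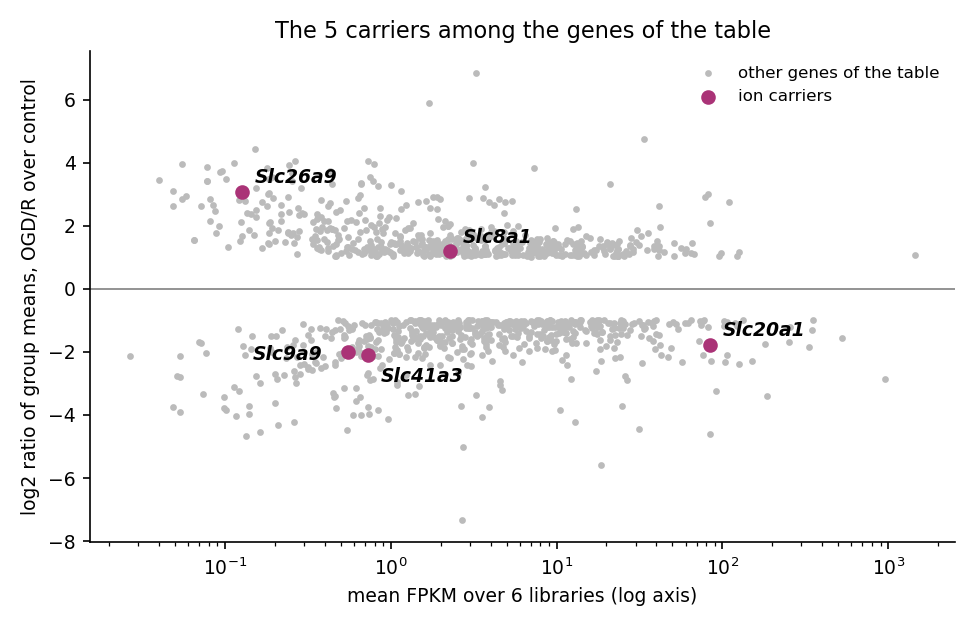
Log2 ratio of group means (OGD/R over control) against mean FPKM over the 6 libraries (log axis) for the genes of the table, with the 5 carriers in purple; 44 genes with a group mean of 0 have no finite ratio and are not drawn. The empty band around 0 is the submitters' picking, Slc20a1 lies among the most abundant genes, and Slc26a9, Slc9a9 and Slc41a3 lie at means of 0.127, 0.555 and 0.733 FPKM.

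Other genes that move calcium were looked up from a list of 50. With Slc8a1, 5 were in the table and 3 were tested, of which 2 rose and 1 fell, where 46.6% of all tested genes rose and 50.7% fell. On log2(FPKM + 1) the median log2 fold change of the 3 tested genes was 0.80, the value of Slc8a1 itself, against -0.68 over all tested genes. Over the 5, tested or not, it was 0.09, against -0.12 over the 1228 genes. That 0.09 is the value of Ryr1, a gene at 0.14 FPKM or less in every library. Stim2, a calcium sensor of the endoplasmic reticulum that opens store-operated channels, held 2.80, 3.02 and 2.81 FPKM in control and 7.67, 8.33 and 8.16 in OGD/R. It rose 2.80-fold, with its groups well apart (log2 fold change 1.22 ± 0.09 SE; adjusted p = 9.9e-05 in limma). Atp2a2, the main calcium pump of the endoplasmic reticulum, held 184.85, 167.67 and 176.73 FPKM in control and 97.78, 93.34 and 78.11 in OGD/R. It fell 1.97-fold (log2 fold change -0.97 ± 0.12 SE, adjusted p = 0.00037 in limma) and remained the most abundant of the 5. The other 2, Atp2a3 and Ryr1, were below the expression minimum, and their values are given after they were seen. Atp2a3, a related pump of blood cells and other tissues, was at 1.28, 1.40 and 1.44 FPKM in control and 0.24, 0.13 and 0.20 in OGD/R, a ratio of means of 7.23 for control over OGD/R. Ryr1, an intracellular calcium release channel, did not exceed 0.14 FPKM in any library. Among the 3 tested genes a plasma membrane exporter and a store sensor rose and a store pump fell. Of the 2 untested genes, Atp2a3 had the lower mean in OGD/R and Ryr1 the higher (0.0967 against 0.0333 FPKM in control).

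**Figure D4:**
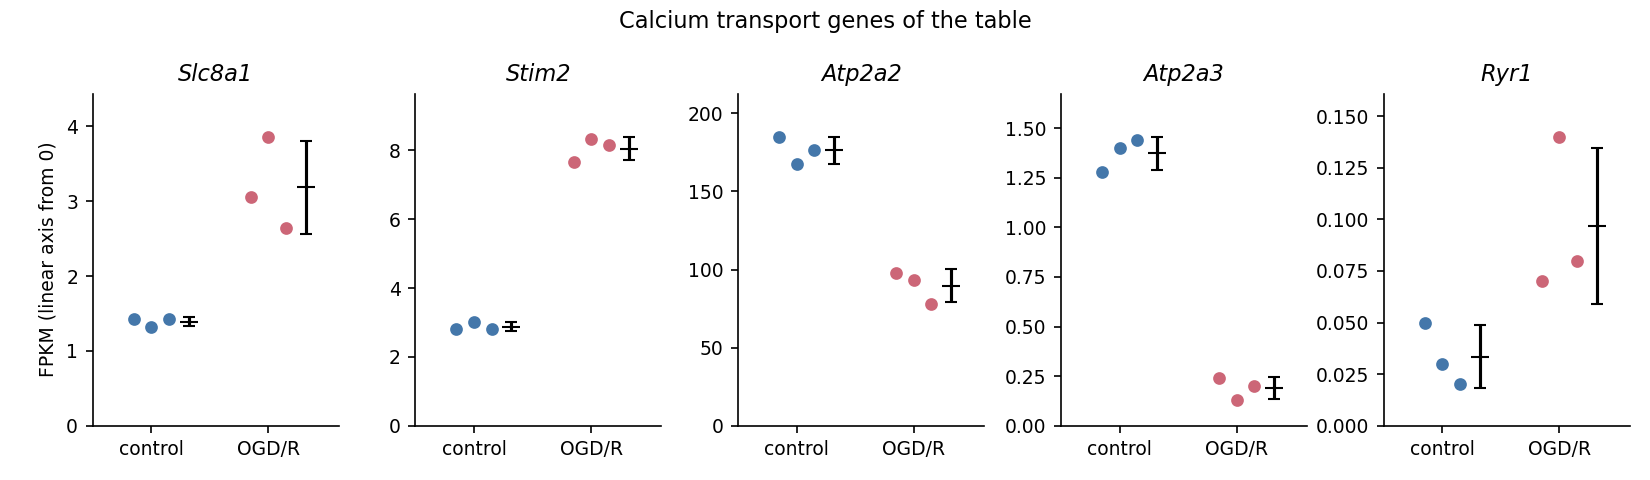
FPKM of the 5 calcium transport genes of the table (linear axes from 0, scaled per gene) in control (blue) and OGD/R (red) libraries, with mean and SD as black bars. Slc8a1 and Stim2 lie higher in OGD/R at up to 3.86 and 8.33 FPKM, Atp2a2 and Atp2a3 lower, and Ryr1 is at 0.14 FPKM or less throughout.

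For the other ions the table held little beside the members. Of 50 listed genes of proton transport and organelle pH only Slc9a9 was in it, of 23 for magnesium only Slc41a3, of 26 for phosphate only Slc20a1 and of 41 for chloride and other anions only Slc26a9. The remaining genes of these lists are not analysed here. Whether the differences reach further within each family was therefore not tested.

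Solute carriers of every kind, taken by symbol, made up 20 genes of the table, and 15 had the lower mean in OGD/R. Of 11 tested, 2 rose and 9 fell, with a median log2 fold change of -1.13, against 397 rises and 432 falls and a median of -0.68 over all 852 tested genes. Without the 5 members, 9 were tested, 1 rose and 8 fell. Among the 20, Slc20a1 had the largest fall on the log2(FPKM + 1) scale and Slc8a1 the second largest rise, after the cystine carrier Slc7a11. The ranking depends on that scale. By ratio of group means Slc1a1 (6.61), Slc18a1 (5.11), Slc41a3 (4.30), Slc9a9 (3.97) and Slc30a1 (3.72) fell more than Slc20a1 (3.41). By the same measure Slc26a9 (8.5) and Slc35f1 (2.31) rose more than Slc8a1 (2.29). On the log2(FPKM + 1) scale the largest falls after Slc20a1 were in Slc39a2, a zinc importer (9.74 ± 2.80 to 2.93 ± 0.326 FPKM), Slc35b1, a nucleotide carrier of the endoplasmic reticulum (35.5 ± 5.76 to 13.3 ± 1.29), and Slc6a9, a glycine carrier (18.7 ± 1.41 to 7.04 ± 0.142, SD, n = 3). Slc9a9 and Slc41a3, at -0.62 and -0.77, were nearer to 0 than any of the 9 that fell, on a scale that understates the change of low genes.

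**Figure D5:**
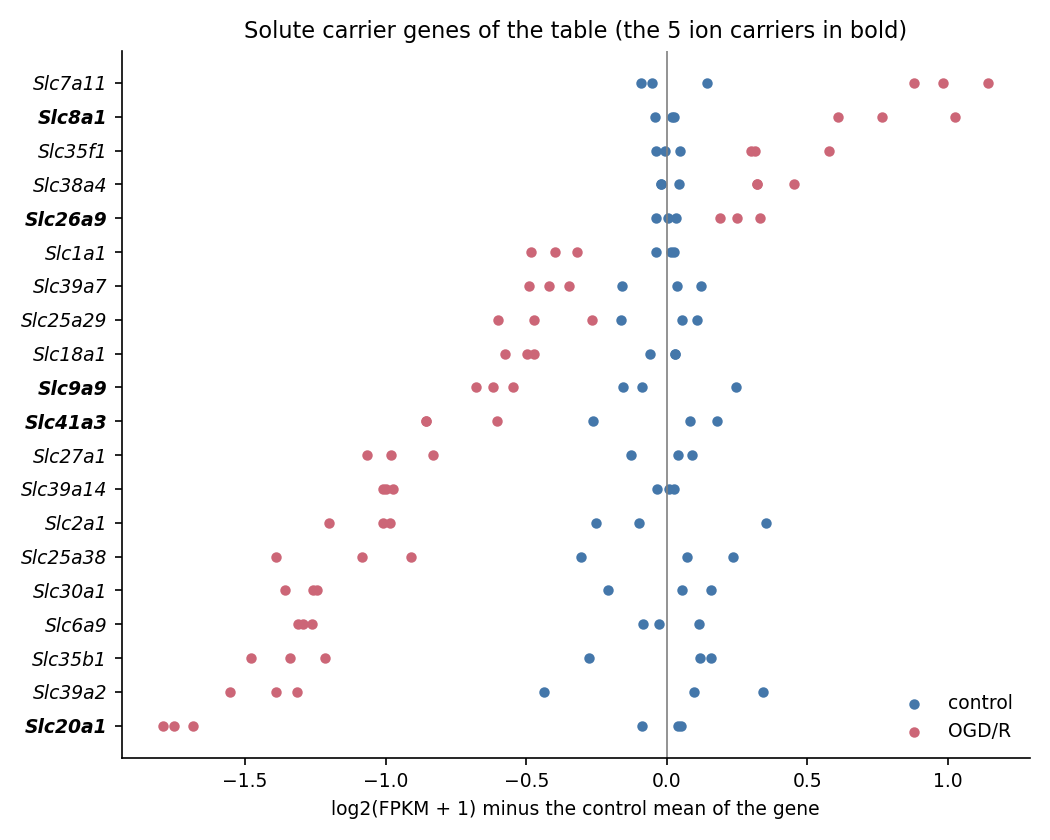
Log2(FPKM + 1) of each library minus the gene's control mean (x axis) for the 20 solute carriers of the table, 3 control (blue) and 3 OGD/R (red) libraries per gene, sorted by log2 fold change with the 5 ion carriers in bold. Slc20a1 lies farthest to the left, 15 of the 20 genes lie left of control and 5 right, among them Slc8a1 and Slc26a9.

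Genes with the most similar course over the 6 libraries were sought among 634 tested genes with established symbols, by the root mean square difference of log2(FPKM + 1) after centring each gene on its own mean. For Slc8a1 the nearest was Mybl1, at a difference of 0.034, with 1.35, 1.44 and 1.46 FPKM in control and 3.07, 3.87 and 2.69 in OGD/R, so that the second OGD/R library was again the highest. Txndc16 came next at 0.078. For Slc20a1 these were Ndrg1 at 0.082, with 63.13, 66.76 and 65.26 FPKM in control and 18.46, 19.30 and 19.18 in OGD/R, and Mcf2l at 0.084. For Slc41a3 they were Slfn8 at 0.087 and Speg at 0.11, and for Slc9a9 Zfp945 at 0.096 and Bach2os at 0.10. For Slc26a9 the nearest were Pdzrn3 at 0.21 and Psrc1 at 0.22. All candidates had a mean of at least 1 FPKM and Slc26a9 one of 0.127, so genes at its level were not searched. Because the table was picked for a step between the groups, likeness mostly reflects the size of that step and is given as a description.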

How the data were processed

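Bv2 libraries (3 control, 3 OGD/R; grouped by title) were sequenced as paired reads of 150 nt from 1 μg of RNA, per the labels' protocols. The deposited values are FPKM, per the file headers, to 2 decimals. Per the submitters' processing notes the build was GRCm38. The aligner, counter, annotation and picking of genes are not stated. The carriers and gene lists were chosen with earlier results of these data known. Genes with a mean of at least 1 FPKM entered limma 3.58.1 (R 4.3.3) as log2(FPKM + 1) (group only, eBayes with trend, two-sided, Benjamini-Hochberg over 852 genes, threshold 0.05); the script was tested on simulated data. GENCODE M21 (GRCm38) placed 1227 of 1228 IDs. Depth in counted units was the size that made values below 15 units whole, given exon lengths: 97.2% to 100% of values were whole within rounding plus 0.03 units (18.8% to 20.1% by chance). A unit may be a read or a read pair. Named genes are the members, up to 4 tested genes with the largest fold per list, untested list members by name, and the 2 nearest genes per member (no Gm, Rik, -ps or clone names). Alternatives covered pseudocount, minimum, scaling, eBayes settings, replicate block, voom on units and each library left out.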

Additional observations from a re-analysis of the deposited data

How the results depend on the processing

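Slc8a1 and Slc20a1 kept direction and call in all 26 and 27 settings that tested them, with or without the minimum; with a minimum of 5 FPKM Slc8a1 was not tested. Without any 1 replicate their log2 fold changes were 0.69 to 0.89 and -1.79 to -1.72. Those of Slc9a9, Slc41a3 and Slc26a9, fitted with no minimum, were -0.69 to -0.49, -0.90 to -0.68 and 0.22 to 0.29. With the minimum kept and any 1 replicate left out, 2 to 2 members were called, where the main setting called 97.3% of all tested genes. Slc9a9, Slc41a3 and Slc26a9 were not tested in those fits. The groups of 5 to 5 members did not overlap, which was fixed in advance: leaving out a library cannot make separate groups overlap. The low genes kept their direction in each setting run, and their size changed with the pseudocount. With pseudocounts of 0.1 and 0.01 Slc9a9 gave -1.58 and -1.92, Slc41a3 -1.79 and -2.12, and Slc26a9 1.37 and 3.01. With no minimum they were called, at the main values of -0.62, -0.77 and 0.26; voom with no minimum, chosen after seeing the data, called them at -1.92, -2.09 and 2.95. With 75th percentile scaling, which shifts the log2 fold change of every gene by the same amount, Slc26a9 was 0.34. The scalings moved the median of all tested genes by 0.038 and 0.079. Members called were 2, 5 with no minimum and 1 with a minimum of 5 FPKM, as more or fewer genes were tested, and 5 by voom with no minimum, which changes the method as well. Of all tested genes limma called 97.3% in the main setting and 96% with no minimum, and voom with no minimum called 98%. Neither these counts nor those of the lists therefore set genes apart from the table. The share with a minimum of 5 FPKM is not given here. With no minimum the proton, magnesium and anion lists went from 0 to 1 called, sodium and potassium from 1 to 2 and solute carriers from 11 to 20, by limma and by voom. Calcium went from 3 to 4 by limma with no minimum and to 5 by voom with no minimum. With the minimum kept, leaving out any 1 replicate did not change the list counts of the main setting. They were 0 to 0 for the proton, magnesium and anion lists and 1 to 1 for sodium and potassium. For solute carriers they were 11 to 11, for calcium 3 to 3 and for phosphate 1 to 1. Whether replicate numbers pair the samples could not be settled. Libraries sharing a number had correlations of 0.428, -0.349 and 0.375 in their deviations from the group means, and not every library correlated best with its own number. Within a group of 3 such deviations cancel out, so the correlations constrain one another. With a replicate block 835 of the genes were called instead of 829, Slc8a1 stayed at 0.80 and Slc20a1 at -1.74 (limma adjusted p = 0.0042 and 0.00081, ranges over all their settings 0.00024 to 0.0090 and 1.2e-06 to 0.0011), and the blocked values of Slc9a9, Slc41a3 and Slc26a9 were -0.62, -0.77 and 0.26. Depth limits Slc26a9 most, at 0 to 2 control units per library.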

Other observations

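Of 25 listed genes of sodium and potassium transport 2 were in the table. Kcnk13, a background potassium channel known from microglia, fell from 7.46, 9.12 and 7.37 FPKM in control to 4.36, 3.15 and 3.37 in OGD/R, with means of 7.98 ± 0.985 and 3.63 ± 0.645 (SD, n = 3), and the log2 fold change was -0.96 ± 0.14 SE (adjusted p = 0.00073 in limma). Kcna3, a voltage-gated potassium channel of immune cells, was below the expression minimum and is given after its values were seen. It was listed at 0, 0.13 and 0 FPKM in control and at 0.79, 0.31 and 0.30 in OGD/R.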
